A study of Pseudotsuga menziesii with 26 samples.

Results

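Needles of Douglas-fir (Pseudotsuga menziesii) seedlings kept in whole diesel exhaust were compared with needles of seedlings kept in the filtered exhaust of a cerium-treated diesel fuel. All seedlings carrying either group label were used, which gave 13 of the 26 libraries of the series, 7 from the DE group and 6 from the DECe Gas Phase group. In the DE group the chamber air held the emissions of burning plain diesel fuel, gases and particles together. In the DECe Gas Phase group it held the emissions of diesel fuel to which engineered CeO2 nanoparticle catalysts had been added, after passage through a HEPA filter. Both groups were exposed for 6 h per day on 5 days per week for 2 weeks, with filtered air between exposures. The seedlings were half-siblings, assigned at random, and grown in shared trays under 16 h of light per day at 280 µmol per second and square metre. The experiment ran in December, when needle growth was dormant, and poly(A) RNA came from previous-year needles on lateral stems. Each atmosphere had 1 chamber of 984 L, so the fuel additive, the particles and the chamber cannot be told apart in this comparison. The remaining libraries, from Air Control and unfiltered DECe seedlings, entered the filter on low counts, the scaling, the shared estimate of the spread and a few levels given for orientation.

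Diesel exhaust is a mixture of soot particles with gases such as carbon monoxide and nitrogen oxides. Cerium oxide particles are added to diesel fuel as a combustion catalyst, and a HEPA filter holds back particles while gases pass. Conifer needles live for several years and exchange gases through stomata, so an older needle meets both the gases and the particles that settle on its surface. Poly(A) RNA sequencing reads out the transcript pool of such needles, in which a few very abundant transcripts can take up much of a library. In such bulk samples, fewer cells of a type and less RNA per cell cannot be told apart. The deposited identifiers are not paired with gene names, so transcripts are given by identifier and length, functions and genome positions were not analysed here, and the labelled tissue was not checked against marker genes.

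The libraries differed in depth and, more widely, in how many transcripts they held. Total counts in DE libraries were 3134120, 8547654, 5786788, 28990156, 9017951, 2467403 and 8115296 for replicates 1, 2, 4, 5, 6, 8 and 12. Those in DECe Gas Phase libraries were 22717240, 18530987, 6349478, 6840719, 36040778 and 13659729 for replicates 2, 3, 4, 5, 7 and 10. Below a boundary of 10000000 counts lay 6 of 7 DE libraries, all but replicate 5, and 2 of 6 DECe Gas Phase libraries, replicates 4 and 5; they are called shallow here and the others deep. The geometric mean total was 6985320 in DE and 14423000 in DECe Gas Phase, a ratio of 0.484, and the groups overlapped (two-sided exact permutation p = 0.112, adjusted p = 0.112 over 6 library measures).

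Transcripts with at least 1 count numbered 17435 ± 18282 in the 7 DE libraries, against 38514 ± 15622 in the 6 DECe Gas Phase libraries (mean ± SD). The two-sided exact permutation p was 0.0501, with an adjusted p of 0.0752. Each library was then thinned, by drawing counts at random without replacement, to the lowest total of 2467403. At these equal totals 8939, 7070, 4423, 34980, 5429, 6049 and 15891 transcripts were left in DE replicates 1, 2, 4, 5, 6, 8 and 12. In DECe Gas Phase replicates 2, 3, 4, 5, 7 and 10 there were 32541, 31335, 19719, 11709, 33974 and 30385. DE replicate 5 held the most transcripts of all 13 libraries, while the other DE libraries lay below 5 of the 6 DECe Gas Phase libraries. The mean difference, DE minus DECe Gas Phase, was -14785 transcripts (two-sided exact permutation p = 0.0245, adjusted p = 0.0734), so the gap in breadth did not go away when totals were made equal, though it missed the adjusted threshold of 0.05.

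A small set of transcripts accounted for most counts of the shallow libraries. Called dominant here are the 23 transcripts with more than 1% of all counts in any 1 of the 26 libraries. They took 91.6% to 95.8% of the counts in the 6 shallow DE libraries and 38.8% in DE replicate 5. The same transcripts held 86.1% and 93.0% in the shallow DECe Gas Phase replicates 4 and 5, and 43.4% to 56.4% in the 4 deep ones. The 95% exact (Clopper-Pearson) binomial bounds of a library share given here lay within 0.0608 percentage points of it, covering counting error only. Depth class and make-up therefore moved together in both groups. Counts outside the dominant transcripts had a geometric mean of 554722 in DE and 4247910 in DECe Gas Phase (ratio 0.131, two-sided exact permutation p = 0.0390, adjusted p = 0.0752). The effective number of transcripts, the number of equally abundant transcripts that would give the same Shannon entropy, was 15.4 in DE and 115 in DECe Gas Phase as a geometric mean (ratio 0.134, two-sided exact permutation p = 0.0804, adjusted p = 0.0965).

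The libraries were also compared by their distances on log2 CPM, where CPM is counts per 1000000 of the library size scaled by TMM, edgeR's correction for composition. The group label accounted for an R2 of 0.278 of the squared distances (one-sided exact permutation p = 0.0152, adjusted p = 0.0734, the smallest p possible being 0.000583), and depth class for 0.364, given as a description. The nearest library was of the same group for 9 of 13 libraries and of the same depth class for 11 of 13, with the same counts at equal totals. The nearest library to DE replicate 5 was DECe Gas Phase replicate 7, and the nearest to DECe Gas Phase replicate 5 was DE replicate 12. None of the 6 library measures passed the adjusted threshold on all 13 libraries. Without DE replicate 5 all 6 did, with adjusted p of 0.0303 for total counts, 0.0286 for the effective number and 0.00649 for each of the other 4 measures (exact permutation tests). Without DECe Gas Phase replicate 5, detected transcripts, detected transcripts at equal totals, counts outside the dominant transcripts and the distances passed, each at an adjusted p of 0.0398 (exact permutation tests). Leaving out any other single library, no measure passed. The adjusted p then reached up to 0.161 for detected transcripts and 0.226 for the effective number (exact permutation tests).

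**Figure D1:**
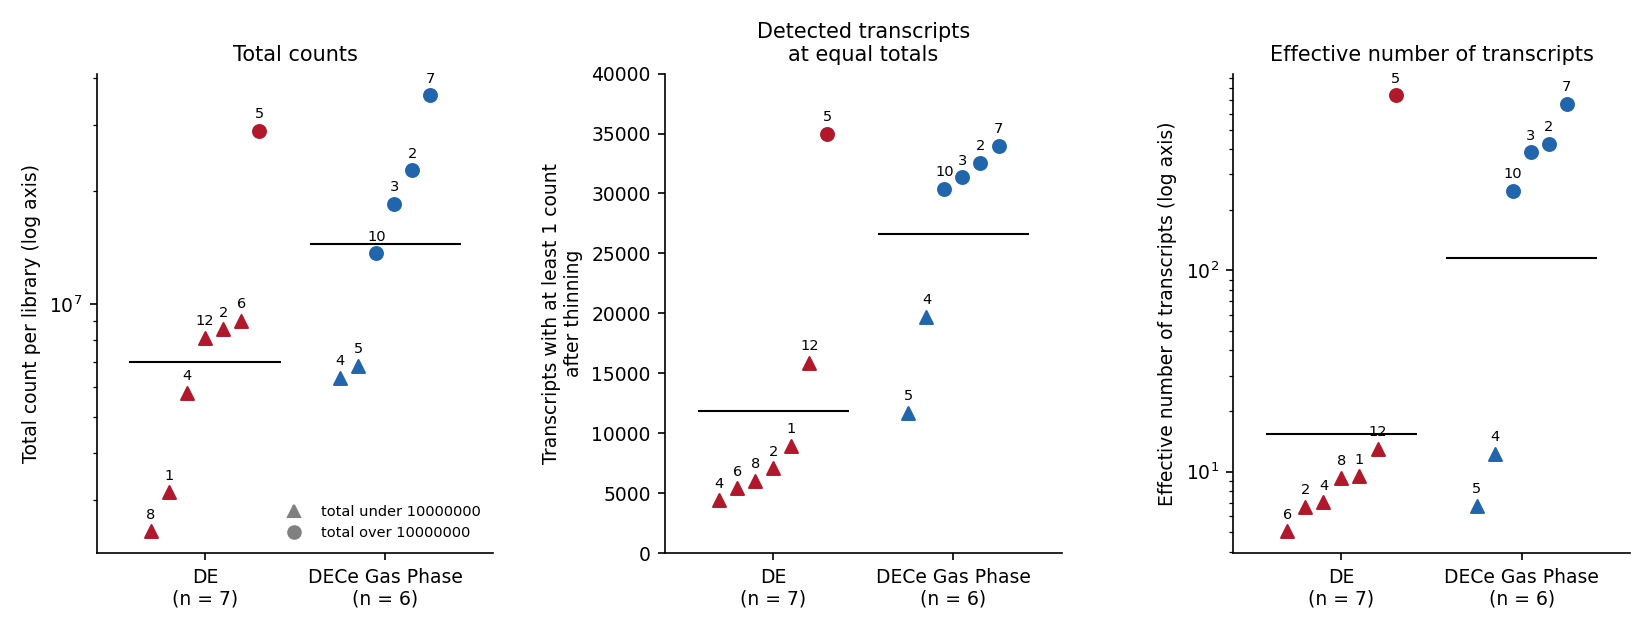
Total count (log axis), transcripts detected after thinning to 2467403 counts, and effective number of transcripts (log axis) in each DE library (red, n = 7) and DECe Gas Phase library (blue, n = 6), numbered by replicate; triangles are libraries under 10000000 counts, circles those above, and lines are group means (geometric in the outer panels). DE replicate 5 lies among the deep DECe Gas Phase libraries in total count. It lies above them in detected transcripts (34980 against at most 33974) and in effective number (739 against at most 671).

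The 2 most abundant transcripts over the 13 libraries took larger average shares in DE, with overlapping groups. The first, psme_t002753 (4295 nt), made up 38.5% ± 13.9 of the counts in DE (SD, n = 7; lowest 20.04%, median 37.2%, highest 61.7%), against 24.8% ± 20.3 in DECe Gas Phase (SD, n = 6; 9.39%, 16.4% and 62.9%). Its highest share in either group was in the shallow DECe Gas Phase replicate 5. The second, psme_t001906 (4727 nt), made up 18.8% ± 9.21 in DE (4.36% to 31.3%) and 8.28% ± 2.39 in DECe Gas Phase (4.16% to 10.3%), and the DE library with the lowest share was again replicate 5. On TMM-scaled counts the log2 fold changes, DE over DECe Gas Phase, were 3.03 ± 1.39 (SE; edgeR adjusted p = 0.241) for psme_t002753 and 4.40 ± 1.21 (SE; edgeR adjusted p = 0.0657) for psme_t001906, neither past the threshold. Leaving out DE replicate 5 took psme_t001906 past it (edgeR adjusted p = 0.0258), as did leaving out DECe Gas Phase replicate 5 (edgeR adjusted p = 0.0355). Among deep libraries alone psme_t001906 had a log2 fold change of -1.70 (adjusted p = 0.678 by edgeR), and psme_t002753 one of -0.0042.

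Further dominant transcripts, singled out after their values were seen, set single libraries apart. Of the counts of DECe Gas Phase replicate 4, 39.6% fell on psme_t000146 (8738 nt), which had 3.20% to 15.9% in DE libraries. The short psme_t193128 (306 nt) held 4.34% to 10.2% of the counts in the 6 shallow DE libraries and 0.00234% in DE replicate 5, against 9.83% in DECe Gas Phase replicate 5 and at most 0.76% in the other DECe Gas Phase libraries. High shares of psme_t193128 were thus seen in 7 of the 8 shallow libraries, in both groups. Of the 23 dominant transcripts, 10 had a higher and 13 a lower mean share in DE, and none had groups that did not overlap. In the edgeR test 0 were called higher and 4 lower in DE, where 0.501% and 0.479% of all transcripts tested were called. Over all tested, groups did not overlap for 0.0334% (DE above) and 1.39% (DE below).

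**Figure D2:**
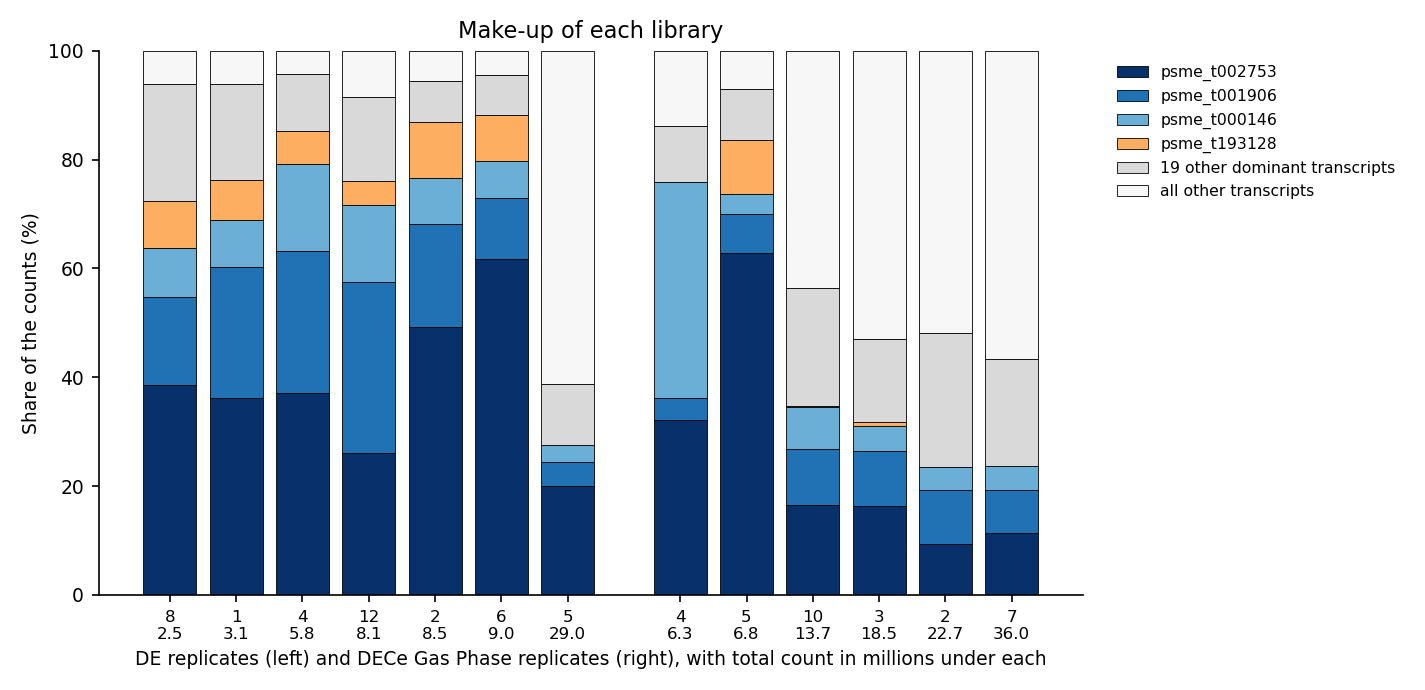
Share of each library's counts (%) taken by 4 named dominant transcripts, the other 19 dominant transcripts together and all remaining transcripts, for DE libraries (left) and DECe Gas Phase libraries (right), each ordered by total count, which stands under the replicate number in units of 1000000 counts. Dominant transcripts fill 91.6% to 95.8% of the shallow DE libraries, against 38.8% of DE replicate 5.

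Of 26942 transcripts tested on the counts as deposited, 264 passed an adjusted p of 0.05 (0.98%; edgeR quasi-likelihood test, Benjamini-Hochberg), 135 higher in DE (0.501%) and 129 lower (0.479%). At an unadjusted p under 0.05 there were 5059. In a simulation with known changes, 21 of edgeR's 135 simulated calls were false (15.6%), more than the threshold allows. After thinning, 2 of 30 were false (6.67%), too few to set against the threshold. The thinned simulation tested 1395 transcripts, against 14312 in the data at equal totals. The simulation gave every transcript the same spread and every library the same make-up, unlike these data, so its rates may not carry over. The split moved with the scaling: edgeR called 335 higher and 55 lower with DESeq2's size factors, and 39 higher and 113 lower with library sizes alone. The median log2 fold change of all transcripts tested was -0.47, so the scaling did not centre the 2 groups on each other. The 135 higher transcripts had a median log2 fold change of 3.21 (1.49 to 12.15), and the 129 lower ones a median of -2.13 (sizes of 1.37 to 10.07). The higher transcripts were spread over all levels: 37, 27 and 71 came from the low, middle and high classes of mean count, each of 8980 or 8981 transcripts. The lower transcripts were mostly abundant, with 10, 8 and 111 in those classes. Their median length was 1307 nt, against 1827 nt for the higher ones and 2001 nt for all tested.

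At equal totals, 343 of 14312 transcripts passed (2.4%; edgeR adjusted p under 0.05), 119 higher in DE and 224 lower, with 3015 at an unadjusted p under 0.05 and a median log2 fold change of -0.47. With DESeq2's size factors the split was 178 higher and 49 lower, and with library sizes alone 0 higher and 30 lower. Shared with the counts as deposited were 167, all in the same direction, 79 higher and 88 lower. That was 63.3% of the 264 and 48.7% of the 343. The balance of directions at equal totals depended on the setting: with the dominant transcripts removed before thinning, edgeR called 291 higher and 76 lower of 3373 tested, and on the 13 libraries alone 128 higher and 18 lower.

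**Figure D3:**
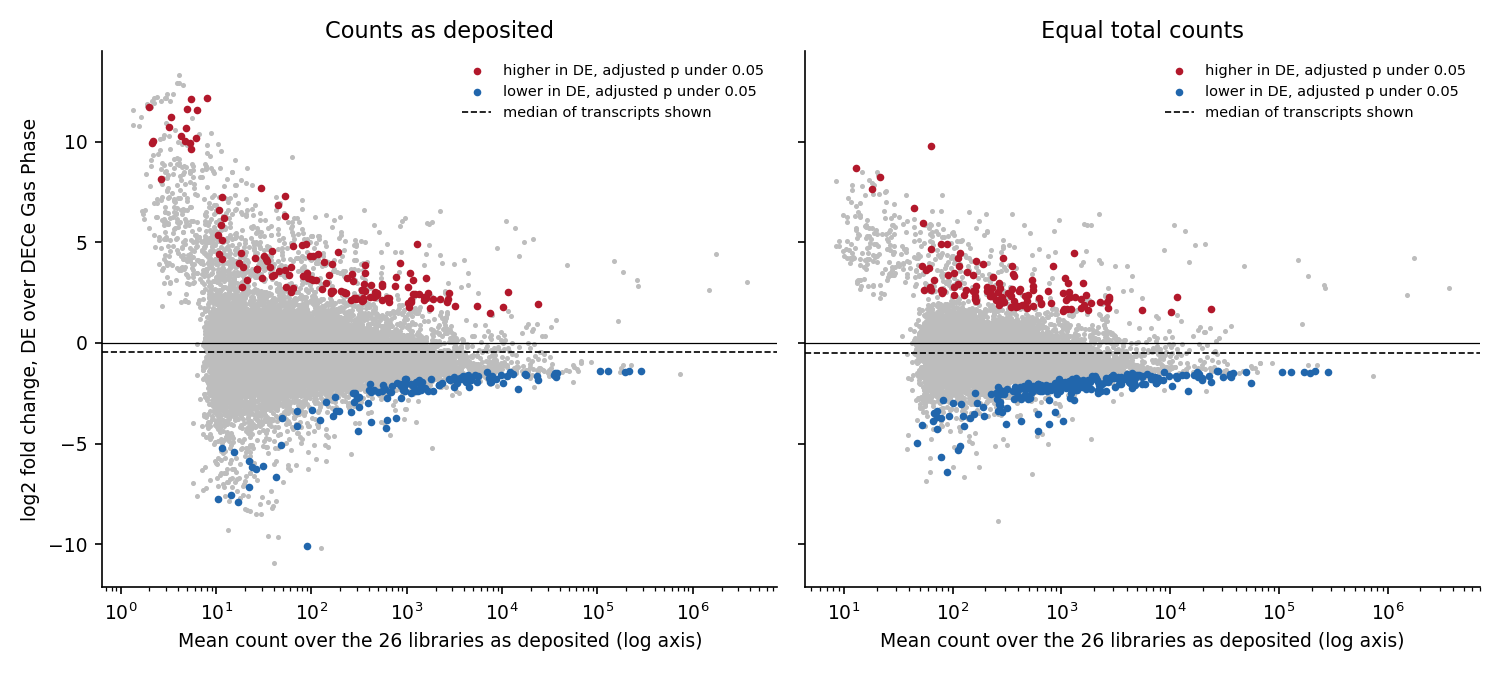
Log2 fold change, DE over DECe Gas Phase (vertical), against the mean deposited count over 26 libraries (log axis) for the transcripts tested on counts as deposited (26942, left) and at equal totals (14312, right). Red and blue points passed an edgeR adjusted p of 0.05, higher and lower in DE; the dashed line is the median of the transcripts shown, -0.47 in both.

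Few of the higher calls, and a larger part of the lower ones, came with groups that did not overlap. Over all transcripts tested, every DE library lay above every DECe Gas Phase library for 9 (0.0334%) and below for 375 (1.39%), on TMM-scaled CPM. Among the called transcripts this held for 7 of the 135 higher and 45 of the 129 lower ones. DE replicate 5 was within the DECe Gas Phase range for 96 of the 135 higher transcripts and for 30 of the 129 lower ones. The shallow DECe Gas Phase replicates 5 and 4 lay within the range of the 7 DE libraries, replicate 5 included, for 111 and 70 of the higher transcripts and for 41 and 48 of the lower ones.

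The depth classes were then taken separately. Within the shallow libraries the DE mean of log2(CPM + 1) was above the DECe Gas Phase mean for 135 of the 135 higher transcripts, and below it for 126 of the 129 lower ones. Within the deep libraries DE replicate 5 was above the DECe Gas Phase mean for 76 of the 135 and below it for 129 of the 129. Of all transcripts tested, 27.1% were above and 65.7% below within shallow libraries, and 47.5% above and 52.3% below within deep ones. The median difference of the higher transcripts was 2.21 in shallow and 0.0827 in deep libraries, and that of the lower ones -1.60 and -1.49. These transcripts were chosen on the same libraries, so the counts describe the calls and are no further test of them.

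The levels of the higher transcripts rested on the scaling. Their median CPM was 7.39 to 50.9 in shallow DE libraries and 3.31 in DE replicate 5, against 1.84 and 4.76 in the shallow DECe Gas Phase libraries and 2.25 to 2.63 in the deep ones. In the unfiltered DECe group it was 3.14 to 13.8 in the 3 shallow libraries and 2.33 to 2.39 in the 4 deep ones, and Air Control libraries, all deep, had 2.12 to 2.87. As a plain share of the library's counts, the same 135 transcripts together made up 0.140% to 0.172% in shallow DE libraries and 0.955% in DE replicate 5, against 0.132% and 0.139% in shallow and 0.443% to 0.722% in deep DECe Gas Phase libraries. So their summed share was lower in the shallow DE libraries than in the deep DECe Gas Phase ones, while their scaled level was higher. The TMM factors were 0.0614 to 0.351 in shallow DE libraries and 4.36 in DE replicate 5, against 0.308 and 0.685 in shallow and 2.45 to 3.84 in deep DECe Gas Phase libraries. With library sizes alone in place of these factors, 59 of the 135 kept a positive log2 fold change, the median of the 135 was -0.17 and the median of all tested was -1.51. With DESeq2's size factors 135 of the 135 kept it, with a median of 3.77 beside -0.15 for all tested. Of all tested, 5.96% were positive with library sizes alone and 43.1% with DESeq2's size factors.

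The lower transcripts were lower in DE in scaled CPM and, within each depth class, in share. Their median CPM was 2.29 to 11.3 in shallow DE libraries and 7.15 in DE replicate 5, against 19.8 and 19.97 in the shallow DECe Gas Phase libraries, 21.9 to 36.5 in the deep ones and 14.1 to 27.3 in Air Control. Every DE library thus had a lower median than every DECe Gas Phase library. The 129 were chosen as lower on these same libraries, so this separation describes the calls and is no further test. Together the 129 transcripts made up 0.0376% to 0.602% of the counts in shallow DE libraries and 4.46% in DE replicate 5, against 0.655% and 0.962% in shallow and 7.12% to 10.3% in deep DECe Gas Phase libraries. With library sizes alone, and with DESeq2's size factors, 129 of the 129 kept a negative log2 fold change. Of all transcripts tested, 94.0% and 56.9% were negative in these 2 settings. For 24 of the 129, the DECe Gas Phase median was under 4.89 CPM, the level that 3 counts stand for in the median shallow DE library. A lower level there could not be seen at that depth. Of the 129, 16 were at 0 in every shallow DE library.

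**Figure D4:**
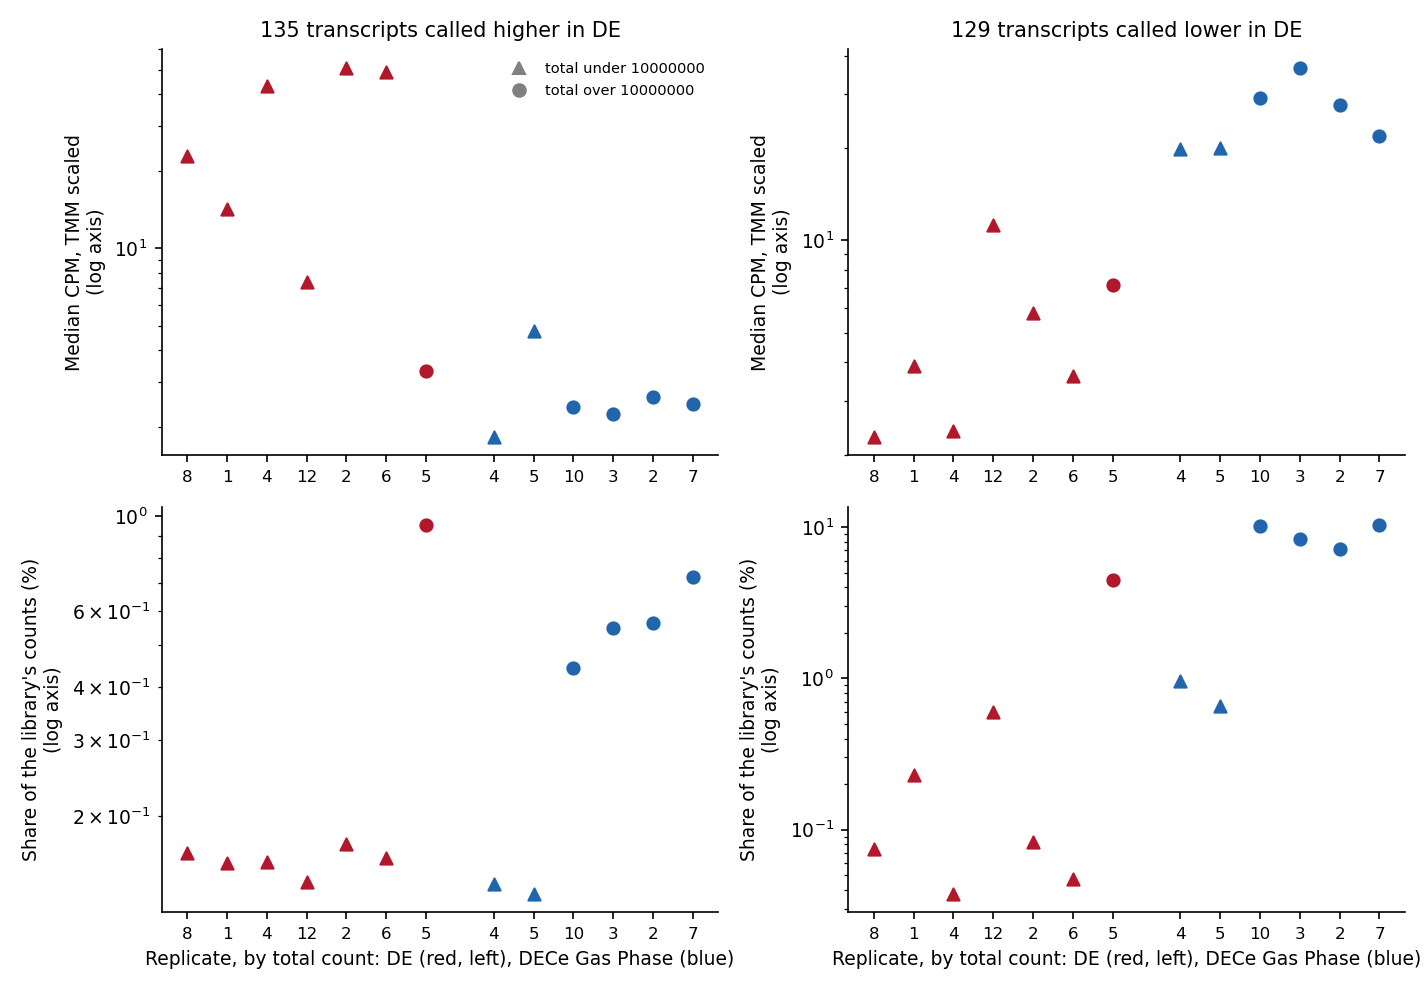
Median TMM-scaled CPM (top, log axes) and summed share of the library's counts in % (bottom, log axes) of the 135 transcripts called higher in DE (left) and the 129 called lower (right), in each DE library (red) and DECe Gas Phase library (blue), ordered by total count; triangles are libraries under 10000000 counts. The higher transcripts lead in scaled CPM in shallow DE libraries (7.39 to 50.9) but not in share (0.140% to 0.172%), while the lower transcripts are lower in DE in scaled CPM and, within each depth class, in share.

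The 2 named higher transcripts of the counts as deposited were small counts in shallow DE libraries. Counts of psme_t085617 (578 nt) were 6, 45, 18, 0, 26, 10 and 23 in DE replicates 1, 2, 4, 5, 6, 8 and 12, against 0, 1, 0, 0, 0 and 0 in DECe Gas Phase replicates 2, 3, 4, 5, 7 and 10. All 6 shallow DE libraries held it, while the deep DE replicate 5 had none, and so had 5 of the 6 DECe Gas Phase libraries. It was also at 8.47 to 17.4 CPM in the 3 shallow libraries of the unfiltered DECe group, and at no more than 0.0829 CPM in the 4 deep ones. The filter on low counts was thus passed mainly through shallow libraries, most of them DE. Presence of psme_t085617 in them is no further support for the call. The 7 DE libraries averaged 27.8 ± 24.5 CPM and the 6 DECe Gas Phase libraries 0.00354 ± 0.00867 CPM (mean ± SD), and the fitted log2 fold change came to 12.15 ± 2.47 (SE; adjusted p = 0.0350 by edgeR). Counts of psme_t067203 (718 nt) were 31, 71, 5, 0, 11, 4 and 10 in the DE libraries, against 0, 1, 0, 0, 0 and 0 in the DECe Gas Phase libraries, in the same replicate order. Again all 6 shallow DE libraries held it and DE replicate 5 had none, with DE replicate 2 highest at 103 CPM. With 9 counts in all of unfiltered DECe and 0 in Air Control, psme_t067203 passed the filter on low counts mainly through the shallow DE libraries. Its presence in them is thus no further support for the call. Its fitted log2 fold change was 12.12 ± 2.78 (SE; adjusted p = 0.0463 by edgeR). With 1 count in all of DECe Gas Phase, both fitted values depend on the prior count. Pooled over libraries, summed counts over summed scaled library sizes gave ratios of 289 for psme_t085617 (95% counting interval 50.9 to 11484) and 298 for psme_t067203 (52.5 to 11840). In these pooled ratios DE replicate 5, with no count of either, makes up 95.7% of the DE library size, so they are not the ratios of the mean levels.

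Leaving out single libraries moved both calls across the adjusted threshold, which also depends on how many other transcripts pass. The unadjusted edgeR p stayed between 9.96e-06 and 0.000699 for psme_t085617, and between 9.50e-05 and 0.00446 for psme_t067203. For psme_t085617 the edgeR adjusted p was 0.0844, 0.0798, 0.0843 and 0.0510 without DE replicates 2, 4, 6 and 8, and 0.0708, 0.116, 0.0601 and 0.102 without DECe Gas Phase replicates 2, 3, 7 and 10. For psme_t067203 it was 0.0632, 0.0894, 0.0844, 0.0951 and 0.0692 without DE replicates 1, 2, 4, 6 and 8, and 0.0923, 0.155, 0.0630, 0.0814 and 0.114 without DECe Gas Phase replicates 2, 3, 4, 7 and 10 (edgeR). The log2 fold changes ran from 11.60 to 13.62 and 11.17 to 13.59, highest for both without DECe Gas Phase replicate 3, which held the 1 count, and lowest for psme_t067203 without DE replicate 2. In other settings, psme_t085617 stayed past the threshold in 9 of 14 and psme_t067203 in 8 of 13. Both missed it with each depth term, with the replicate number as a block and with no filter. DESeq2 gave adjusted p of 5.99e-08 and 0.000149. On shallow libraries alone edgeR gave adjusted p of 0.0149 and 0.0165, with log2 fold changes of 8.67 each.

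The 2 named lower transcripts were seen in DECe Gas Phase at levels that most DE libraries were too shallow to show. Counts of psme_t021809 (1893 nt) were 0 in all 7 DE libraries, against 280, 125, 11, 1, 315 and 53 in DECe Gas Phase replicates 2, 3, 4, 5, 7 and 10. The DECe Gas Phase level was 2.24 ± 1.15 CPM (SD, n = 6), and Air Control had 1.20 ± 1.01 CPM (SD, 6 libraries). In the shallow DE libraries 3 counts stood for 1.06 to 7.19 CPM, and in DE replicate 5 for 0.0239 CPM. Only in DE replicates 5 and 12 was the floor under the DECe Gas Phase mean: psme_t021809 was at least 93.9-fold lower than that mean in replicate 5 and at least 2.13-fold lower in replicate 12. The fitted log2 fold change, -10.07 ± 2.31 (SE; adjusted p = 0.0437 by edgeR), depends on the prior count. Counts of psme_t020405 (1974 nt) were 0 in all DE libraries but replicate 5, with 2, against 153, 4, 0, 11, 262 and 59 in the DECe Gas Phase libraries. It was at 0 in DECe Gas Phase replicate 4 too, so the groups overlapped. It averaged 0.00228 ± 0.00602 CPM in DE (SD, n = 7) and 1.86 ± 1.90 CPM in DECe Gas Phase (SD, n = 6), with a log2 fold change of -6.65 ± 1.68 (SE; adjusted p = 0.0462 by edgeR). The pooled ratio, set mainly by the size of DE replicate 5, was 0.00922 (95% counting interval 0.00111 to 0.0335).

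Leaving out single libraries moved these calls across the adjusted threshold too. The unadjusted edgeR p ran from 0.000192 to 0.0119 for psme_t021809 and from 5.06e-05 to 0.0396 for psme_t020405, highest for both without DE replicate 5. For psme_t021809 the edgeR adjusted p was 0.0535, 0.0844, 0.0798, 0.0955, 0.0943 and 0.0603 without DE replicates 1, 2, 4, 5, 6 and 8, and 0.0708, 0.115, 0.0601 and 0.0989 without DECe Gas Phase replicates 2, 3, 7 and 10. For psme_t020405 the same 10 libraries, left out singly, gave edgeR adjusted p of 0.0626 to 0.161, the highest without DE replicate 5. The log2 fold change of psme_t021809 kept to between -10.27 and -9.82, while that of psme_t020405 was -9.53 without DE replicate 5 and -6.95 to -6.22 without any other library. With limma-voom they were -2.07 (adjusted p = 0.239) and -0.55 (adjusted p = 0.699), neither past the threshold. That tool made more false than true calls in the simulation.

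At equal totals the named higher transcripts again lacked counts in DE replicate 5. Thinned counts of psme_t175704 (328 nt) were 70, 92, 355, 0, 7, 10 and 29 in DE, against 0, 4, 1, 2, 0 and 0 in DECe Gas Phase, in the replicate order used above. DE replicate 4 stood far above the others. The level was 328 ± 615 CPM in DE and 0.664 ± 1.05 CPM in DECe Gas Phase (mean ± SD, n of 7 and 6), and the fitted log2 fold change reached 9.81 ± 2.24 (SE; adjusted p = 0.0304 by edgeR). Thinned counts of psme_t029248 (1534 nt) were 9, 25, 12, 0, 11, 28 and 7 in DE, against 0, 0, 0, 2, 0 and 0 in DECe Gas Phase, where the shallow replicate 5 held both counts. Its pooled ratio was 113 (95% counting interval 30.5 to 949), with 81.7% of the DE library size from replicate 5, and its log2 fold change 8.69 ± 2.10 (SE; edgeR adjusted p = 0.0344). The 3 shallow libraries of the unfiltered DECe group held both too, psme_t175704 at 13.6 to 23.2 CPM and psme_t029248 at 1.51 to 34.6 CPM. In the 4 deep DECe libraries they were at no more than 0.696 and 0.106 CPM. Both thus passed the filter on low counts mainly through shallow DE and unfiltered DECe libraries. Their presence there is no further support for the calls. Over 4 other random thinning draws, psme_t175704 passed in 3 (edgeR adjusted p of 0.0334 to 0.0570), and psme_t029248 passed the filter on low counts in 1 and was not called there (edgeR adjusted p = 0.0584). Leaving out single libraries took psme_t175704 to an edgeR adjusted p of 0.0513 to 0.0789 for DE replicates 2, 4, 6 and 8 and DECe Gas Phase replicates 2, 3 and 10. It took psme_t029248 to 0.0601 to 0.101 (edgeR adjusted p) for DECe Gas Phase replicates 2, 3, 7 and 10, and without DE replicate 2, 4, 6 or 8 this transcript did not pass the filter. The log2 fold change of psme_t175704 was 8.25 without DE replicate 4 and 10.55 without DECe Gas Phase replicate 5, and that of psme_t029248 was 10.73 without DECe Gas Phase replicate 5 as well.

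Among the lower transcripts at equal totals, psme_t021809 was named again, and psme_t031122 (1457 nt) was the other. Thinned counts of psme_t021809 were 0 in all DE libraries, against 16, 23, 4, 1, 15 and 7 in DECe Gas Phase, and against the DE replicate 5 floor of 0.289 CPM it was at least 7.23-fold lower there (log2 fold change -6.39 ± 1.58, SE; edgeR adjusted p = 0.0282). Thinned counts of psme_t031122 were 1 in DE replicate 1 and 0 in the other DE libraries, against 27, 14, 0, 1, 71 and 68 in DECe Gas Phase. In the counts as deposited the shallow DECe Gas Phase replicate 5 held 12 counts of it (5.71 CPM), above the highest DE value of 1.30 CPM, and replicate 4 held none. The fitted log2 fold change came to -5.31 ± 1.49 (SE; adjusted p = 0.0495 by edgeR). Without any 1 of DE replicates 2, 4, 5, 6 and 8 and DECe Gas Phase replicates 3 and 10, psme_t021809 missed the threshold (edgeR adjusted p of 0.0516 to 0.0986). Without any 1 library other than DECe Gas Phase replicates 4 and 5, psme_t031122 missed it (edgeR adjusted p of 0.0586 to 0.120). Its log2 fold change was -7.62 without DE replicate 1, -3.40 without DE replicate 5 and -5.53 to -4.80 without any other library. It was -4.25 under edgeR's newer quasi-likelihood method (edgeR adjusted p = 0.154). Over the 4 other draws psme_t021809 passed in 2 (edgeR adjusted p of 0.0268 to 0.133) and psme_t031122 in 3 (edgeR adjusted p of 0.0269 to 0.0642, log2 fold changes of -7.70 to -4.50).

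No transcript passed once depth stood in the model. With log10 total count as a covariate, edgeR called 0 of 26942 transcripts, with 4697 at an unadjusted p under 0.05. With log10 count outside the dominant transcripts it called 0, with 3677 at an unadjusted p under 0.05, and with depth class as a factor 0, with 3290. No other tool was run on these fits, and DESeq2 without a depth term called 1453. The direction of the 264 transcripts stayed: 135 of the 135 higher and 129 of the 129 lower ones kept it in each of these 3 fits, with median log2 fold changes of 2.69, 1.85 and 2.01 for the higher and -2.00, -1.88 and -1.79 for the lower ones. Of all 26942 transcripts, 33.7%, 37.6% and 40.1% were higher in DE in these fits, and 66.3%, 62.4% and 59.9% lower. The 264 were chosen on the same libraries, so their kept direction is no further test of them. Their lowest edgeR adjusted p was 0.115 with total count, 0.216 with counts outside the dominant transcripts and 0.168 with depth class. With 6 of 7 DE libraries shallow, against 2 of 6 of DECe Gas Phase, group and depth were partly confounded and cannot be fully told apart in these fits.

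Comparing libraries of like depth left few calls. Among the shallow libraries, 6 DE and 2 DECe Gas Phase, 38 of 8905 transcripts passed (0.427%; edgeR adjusted p under 0.05), 30 higher in DE and 8 lower, with 985 at an unadjusted p under 0.05. Of these 38, 10 were also called on all libraries as deposited and 3 at equal totals. After thinning, edgeR called 0 of 4476 in the shallow libraries, with 613 at an unadjusted p under 0.05. Among the deep libraries, 1 DE and 4 DECe Gas Phase, edgeR called 0 of 45063, with 3658 at an unadjusted p under 0.05, and 0 of 20680 after thinning, with 2346. There the single DE library is assumed to vary like the other groups. In the deep libraries 75 of the 119 higher transcripts that could be tested kept their direction, with a median log2 fold change of 0.34, and 129 of the 129 lower ones did, with a median of -1.93. Of all 45063, 44.8% were higher and 54.1% lower in the DE library.

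The number of calls hung on single libraries of both groups. On the counts as deposited, edgeR called 112, 3, 11, 1307, 0, 40 and 781 transcripts without DE replicates 1, 2, 4, 5, 6, 8 and 12. Without DECe Gas Phase replicates 2, 3, 4, 5, 7 and 10 it called 2, 0, 214, 1534, 3 and 1. The counts of 0 stood beside 4440 and 3925 transcripts at an unadjusted p under 0.05. Calls grew without DE replicate 5 or 12 or DECe Gas Phase replicate 5, and fell to at most 3 without any 1 of the deep DECe Gas Phase libraries. At equal totals edgeR called 233, 30, 44, 1180, 29, 30 and 773 without the DE libraries and 154, 10, 418, 1067, 315 and 13 without the DECe Gas Phase libraries, in the same order. Of the 264 transcripts, 243 were among the 1307 and 263 among the 1534.

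**Figure D5:**
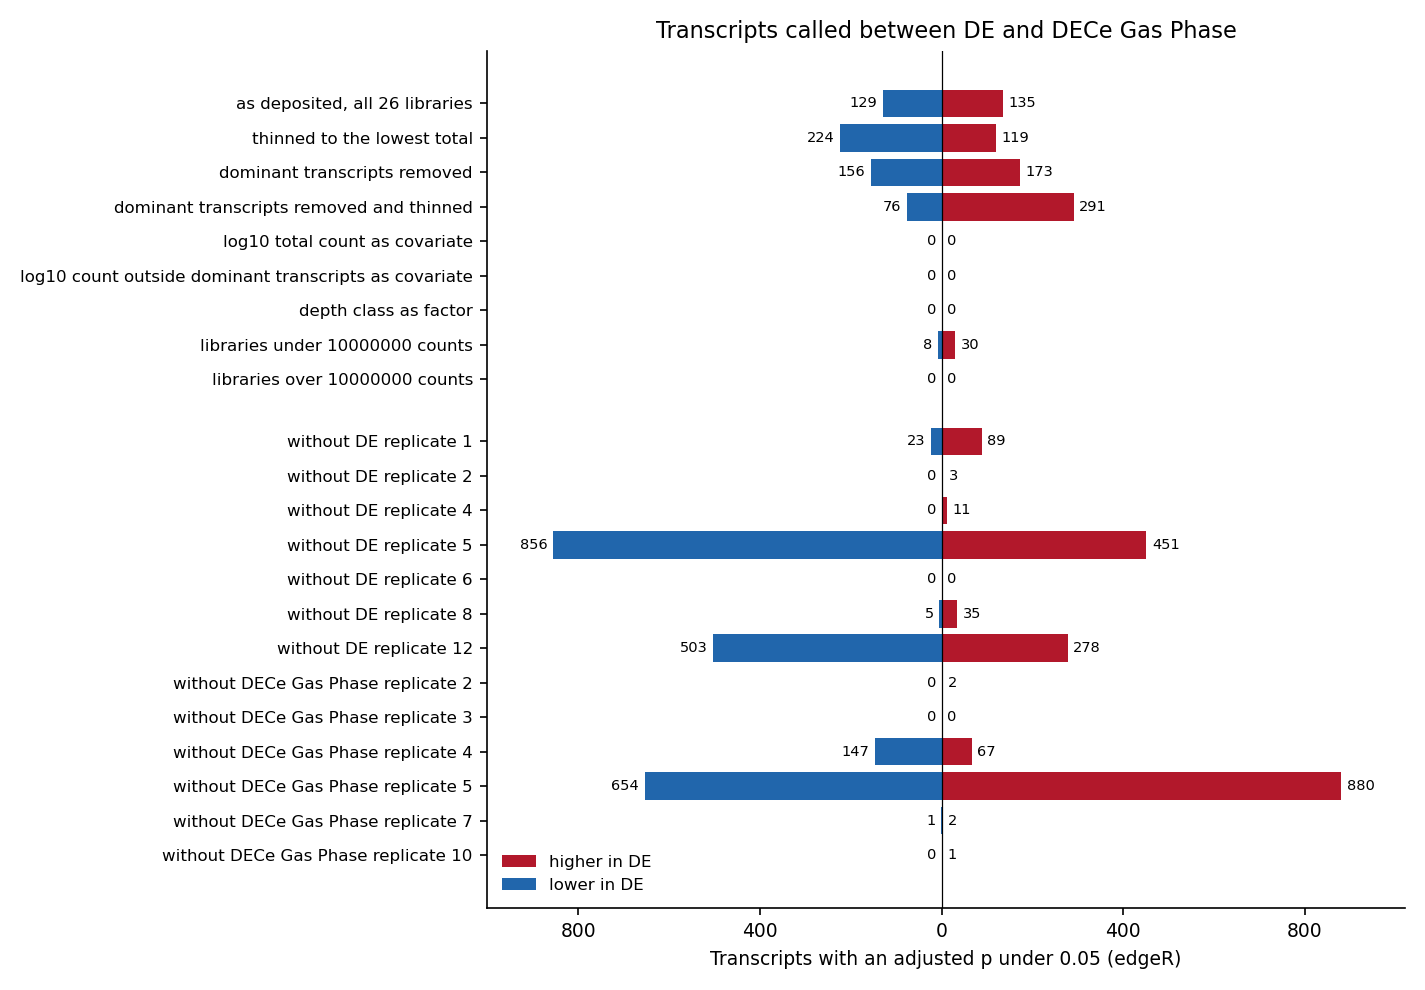
Number of transcripts with an edgeR adjusted p under 0.05 that were higher (red, right) or lower (blue, left) in DE than in DECe Gas Phase, for the counts as deposited, for settings that treat depth differently and for fits that leave out 1 library. Calls run between 0 and 1534, with 0 under each of the 3 depth terms and in the deep libraries alone.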

How the data were processed

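Whole-number counts for 173882 transcripts were deposited as 1 table, raw per the file headers, and 80100 of them were at 0 in all 26 libraries and 97702 in the 13 compared. From the RPKM table that the authors deposited (scaled by length and by library total) only transcript lengths were taken, by dividing counts by RPKM. At RPKM of 10 or more the lengths agreed between libraries within 0.0089%. Per the labels' protocols, poly(A) RNA was made into libraries for Illumina sequencing. CASAVA 1.8.2 is named in the submitters' processing notes. No aligner, counter, reference or strand setting is named in the sources used here, so near-identical, overlapping or antisense transcripts may share counts. Columns left out numbered 0.

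Counts were tested with edgeR 4.0.16 (R 4.3.3), using filterByExpr by group (minimum count 10), TMM, 1 model over 26 libraries and 4 groups, the robust quasi-likelihood F test and Benjamini-Hochberg adjustment. The SE is the log2 fold change divided by the square root of F. Distances used log2 CPM with a prior count of 2. Library measures were compared by exact permutation of the group labels (1716 arrangements). A count of 0 allows up to 3 counts, the floor used. Intervals and floors cover counting error only, since no molecular identifiers are named. Seedlings were separate plants sharing 1 chamber per group, so p-values measure the spread between seedlings of a chamber. Chi-square per degree of freedom was 76.7 or more for each of 36 library pairs within groups, so no library was taken as a repeat of another.

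Alternatives were DESeq2 1.42.0 size factors and test, limma-voom (limma 3.58.1), other filters, depth terms, depth classes, thinning seeds and leaving out each library. On simulated counts, with the same spread for every transcript and the same make-up for every library, edgeR recovered changed transcripts. Without thinning its false calls exceeded the share the threshold allows, and limma-voom made more false than true calls. The transcripts named are the 2 with the largest fold change in each direction among those called and reaching a median of 1 CPM in whichever group was higher, and the 2 with the largest shares. The comparison, its rules, the depth boundary and the dominant share were chosen with earlier results of these data known. Gene lists were not run, because identifiers came without names.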

Additional observations from a re-analysis of the deposited data

Results flagged for a closer look

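In groups of 6 or 7 libraries, the highest or lowest library was set against the others by Dixon's ratio of its gap to the range. Of 30 groups examined 15 gave a flag. Chance gives about 1 in 20 only for independent, normally distributed values, so the 15 cannot be set against that rate. Several flags were of DE replicate 5 in related measures, and the named transcripts were chosen for large fold changes or shares. In DE, replicate 5 stood apart in total count (28990156, the others at most 9017951), detected transcripts (57063, others at most 21999), detected transcripts at equal totals (34980, others at most 15891), counts outside the dominant transcripts (17745686, others at most 684977) and effective number of transcripts (739, others at most 12.97).

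Among named transcripts in DE, psme_t067203 stood apart in replicate 2 at 103 CPM, psme_t020405 in replicate 5 at 0.0159 CPM and, at equal totals, psme_t175704 in replicate 4 at 1694 CPM and psme_t031122 in replicate 1 at 2.03 CPM. In DECe Gas Phase, psme_t085617 and psme_t067203 stood apart in replicate 3, each at 0.0212 CPM from 1 count. At equal totals psme_t175704 and psme_t029248 stood apart in replicate 5, each at 2.70 CPM. The 2 most abundant transcripts stood apart there too, psme_t002753 at 2046180 CPM and psme_t001906 at 233932 CPM. A value above 1000000 is possible because CPM was taken over the library size times a TMM factor of 0.308.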

How the results depend on the processing

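Of the counts as deposited, 264 transcripts were called, and 390 with DESeq2's size factors (335 higher, 55 lower). The number was 152 with library sizes alone (39 higher, 113 lower), 31 with no filter, 1453 with DESeq2, 9201 with limma-voom, 173 on the 13 libraries alone (154 higher, 19 lower), 38 in shallow libraries, and 0 in deep libraries and with each of the 3 depth terms. Leaving out 1 library gave 0 to 1534. At equal totals, against 343, there were 227 with DESeq2's size factors (178 higher, 49 lower), 30 with library sizes alone (0 higher), 95 with no filter, 822 with DESeq2, 146 on the 13 libraries (128 higher, 18 lower), 223 with edgeR's newer quasi-likelihood method, chosen after seeing the data, and 0 in shallow and in deep libraries, also chosen then. Leaving out 1 library gave 10 to 1180, and other thinning seeds 375 to 406, of which 230 to 239 were among the 343. The median log2 fold change of all tested was -0.15 with DESeq2's size factors and -1.51 with library sizes alone. The causes were not tested.

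With the replicate number as a block, 231 were called as deposited (66 shared with the 264) and 128 at equal totals. For the shared numbers 2, 4 and 5, deviations from the group means correlated at -0.147, -0.0809 and -0.493. For numbers 2 and 5 the DE and DECe Gas Phase libraries were of different depth class. These values therefore cannot decide whether the numbers pair the samples.

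Leaving out 1 library gave ratios of 0.382 to 0.582 for total counts, 0.0733 to 0.179 for counts outside the dominant transcripts and 0.0703 to 0.191 for the effective number, differences of -27684 to -17522 for detected transcripts and -18644 to -13312 at equal totals, and an R2 of 0.251 to 0.387. Among deep libraries, with 1 DE library, psme_t001906 had the other sign (log2 fold change -1.70 ± 1.10, SE), while psme_t002753 hardly differed (-0.0042 ± 1.10, SE). Depth limits the lower calls: 3 counts stood for 1.06 to 7.19 CPM in shallow DE libraries.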
